A study of Mus musculus with 6 samples.

Results

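The genes described here carry pyruvate, ketone bodies and branched-chain amino acids into the mitochondrial tricarboxylic acid (TCA) cycle and run the cycle itself. They are 41 genes named by symbol, chosen for their place in these pathways, and all 41 were found among the 21989 gene symbols of the deposited expression table. Polyadenylated RNA was sequenced from left ventricle of male C57BL/6 mice in 2 groups of 3 libraries each. The ISO group, which the labels call the heart failure group, received ISO under the skin at 10 mg per kg per day for 3 weeks, and ISO is the usual abbreviation of isoproterenol, an agonist of beta-adrenergic receptors. The saline group, which the labels call sham, received the same volume of normal saline over the same 3 weeks. No allele is named for either group, and ages are not given in the sources used here. The 3 libraries of a group are labelled as repeats, but which animal each came from is not stated, so p-values reflect the scatter of these 6 libraries alone.

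Pyruvate enters mitochondria through a carrier made of Mpc1 and Mpc2 and is turned into acetyl-CoA by the pyruvate dehydrogenase (PDH) complex. Kinases (Pdk) switch that complex off by phosphorylation and phosphatases (Pdp) switch it back on, which sets how much glucose carbon the heart burns. Acetyl-CoA, also formed from ketone bodies and fatty acids, is joined to oxaloacetate by citrate synthase and oxidized in the TCA cycle, whose NADH and FADH2 feed the respiratory chain. Branched-chain amino acids are first transaminated and then committed to oxidation by a dehydrogenase complex (BCKDH) that is built and regulated much like PDH.

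The read totals behind the FPKM values (fragments divided by gene length and by a total for the library) ran from 2776152 (saline 3) to 9862363 (saline 1). They were worked out from the smallest steps between FPKM values. The reads recovered for genes came close to them, at 2766386 in saline 3 and 9833963 in saline 1. These totals therefore count reads on genes, and all sequenced reads are not known here. The median member had 585 to 1346 reads per library, and the members together took 0.615% to 1.09% of these totals. Saline 3 stood apart, with a Pearson r of 0.788 to 0.830 across genes with the other libraries, while the other 5 libraries had r of 0.918 or more with each other. The label of left ventricle was checked with Myl2, the ventricular myosin light chain, and Myl7, the atrial one. Myl2 was at 1985, 1962 and 140 FPKM in ISO 1 to 3, against 2566, 526 and 9101 FPKM in saline 1 to 3. Myl7 was at 11551, 11487 and 8354 FPKM in ISO 1 to 3, against 16664, 16049 and 7469 FPKM in saline 1 to 3. Myl7 was thus above Myl2 in 5 of the 6 libraries, all but saline 3, which goes against the label. In saline 3 the ratio of Myl2 to Myl7 was 1.22, so the atrial gene was high there too. ISO 3 and saline 2 had the lowest Myl2. ISO 1 and ISO 2 were the closest pair for the members, with a median absolute log2 difference of 0.094, against 0.16 to 1.02 for the other pairs of libraries. Their reads differed by 4.63 times the median chi-square of sampling noise, and all 6 libraries were counted separately.

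More members were lower than higher in the ISO libraries, but no member passed the test over all genes. Of the 41 members, 27 had a log2 fold change below 0 and 14 above 0, where 31.9% of all 12269 genes tested (mean FPKM of at least 1) were below 0. The median log2 fold change of the members was -0.22, on the log2(FPKM + 1) scale, and that of all genes tested was 0.20. With limma and Benjamini-Hochberg adjustment, 0 members were called at an adjusted p of 0.05, as were 0% of all genes, and the smallest adjusted p of a member was 0.699, also the smallest of any gene. At an unadjusted p under 0.05 the members held 1 gene lower in ISO (Idh3g) and 0 higher, where 1.39% of all genes tested were lower and 4.92% higher. The 3 ISO and 3 saline libraries did not overlap for 4 members lower in ISO (Cs, Idh3a, Idh3b and Idh3g), where 3.72% of all genes were lower without overlap. They did not overlap for 2 members higher in ISO (Glud1 and Bckdhb), where 12.8% of all genes were higher without overlap. Limma-voom on the recovered reads also called 0 members.

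**Figure D1:**
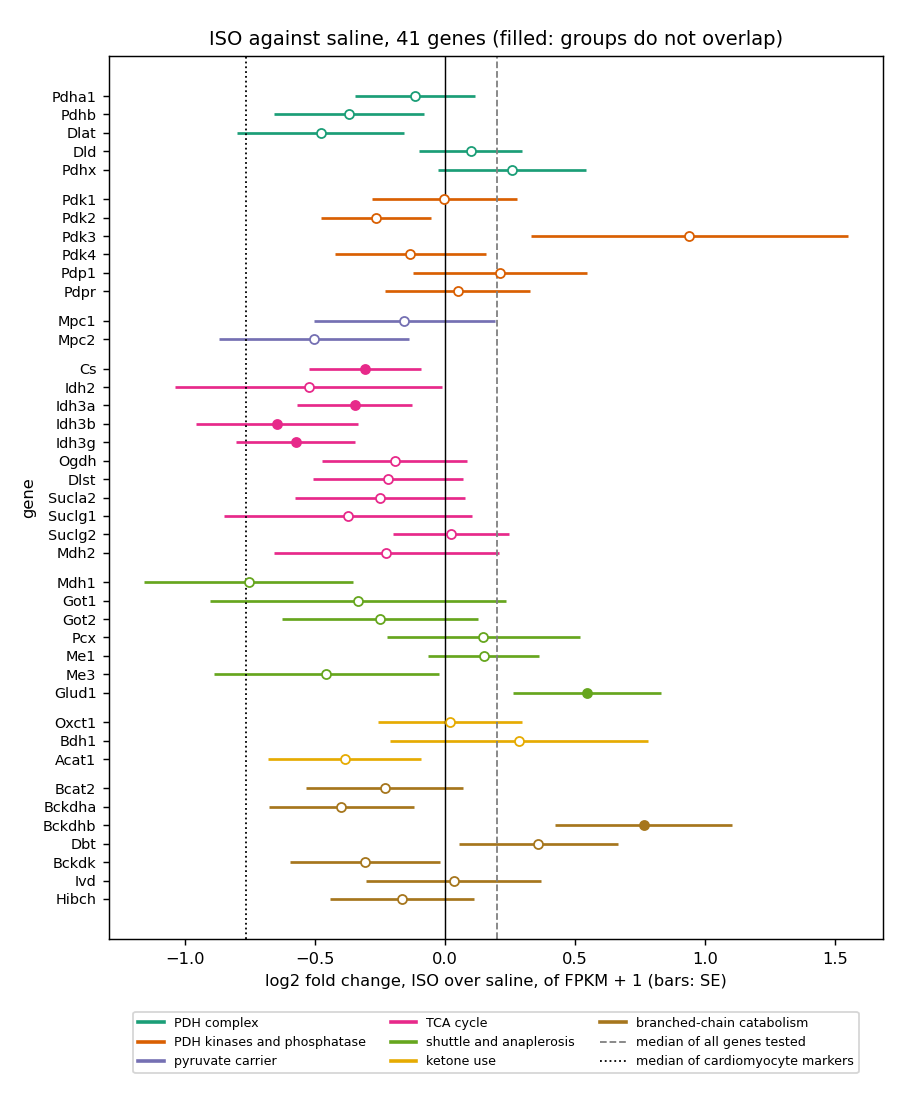
Log2 fold change of FPKM + 1 in ISO over saline for the 41 genes, grouped by role (points: limma estimates; bars: SE; filled points: groups that do not overlap). Most TCA cycle genes lie left of 0, Glud1 and Bckdhb lie right of the median of all genes (0.20), and all members lie right of the median of the cardiomyocyte markers (-0.77).

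This count and the median depended on single libraries. Without ISO 3 the median log2 fold change of the members was 0.043 and 19 of 41 were below 0. Without saline 3 the median was -0.086 and 27 of 41 were below 0. Without ISO 3 and saline 3 together, an alternative chosen after the data were seen, the median was 0.090 and 16 of 41 were below 0. The median of all genes tested was 0.18 without ISO 3, 0.063 without saline 3 and 0.043 without both. The 31.9% of all genes below 0 is from the fit with all 6 libraries, and the share in these alternatives is not given here. ISO 3 was the lowest of the 6 libraries for 22 members (53.7%), where it was the lowest for 11.5% of all genes tested. Saline 3 was the highest for 19 members (46.3%), where it was the highest for 22.4% of all genes. The same library was the lowest for 10 members (24.4%), where it was the lowest for 52.8% of all genes. The summed level of the members was 3777, 3562 and 2581 FPKM in ISO 1 to 3, against 4189, 3222 and 4984 FPKM in saline 1 to 3. The groups overlapped, with saline 2 below ISO 1 and ISO 2.

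**Figure D2:**
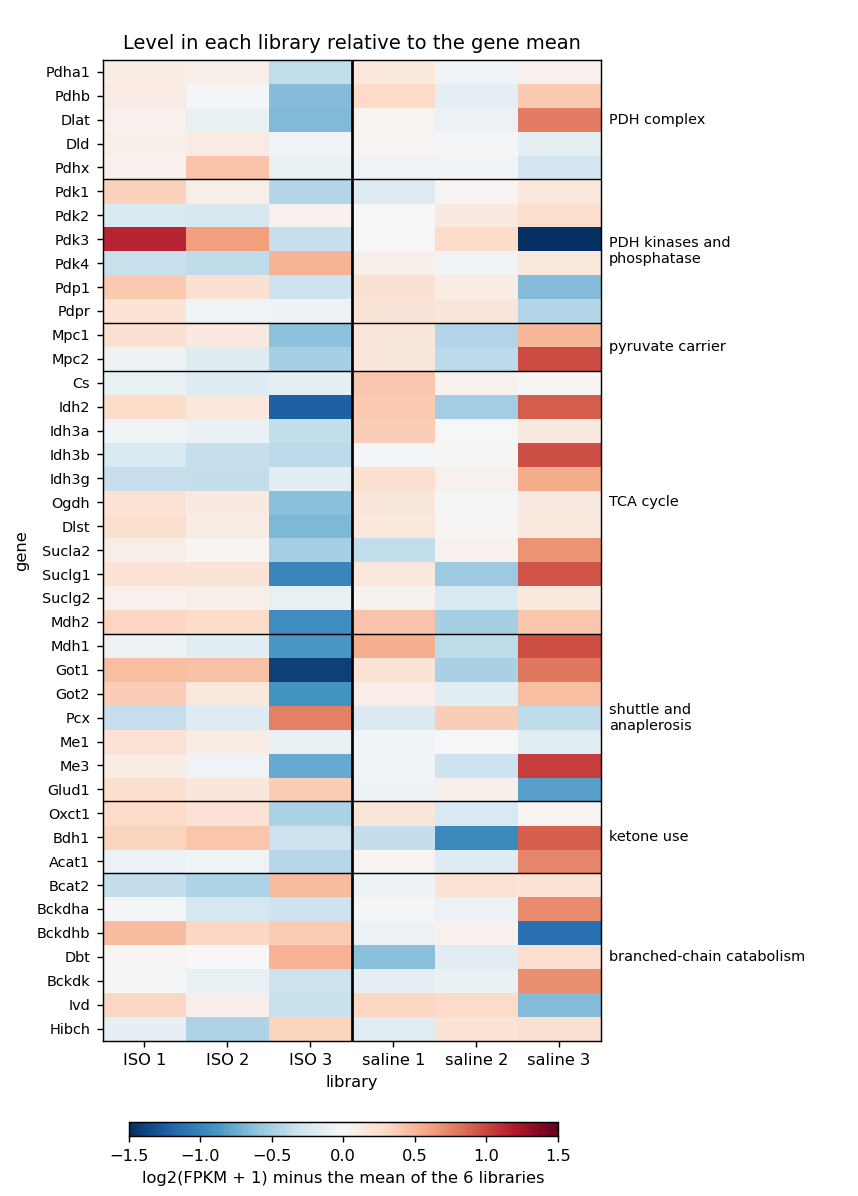
Level of each of the 41 genes in each library, as log2(FPKM + 1) minus the mean of the 6 libraries of that gene (colour, cut at 1.5 in either direction, which only Pdk3 in saline 3 passes), with ISO libraries left and saline libraries right. ISO 3 is blue and saline 3 red for most genes of the TCA cycle and the shuttle, while Pcx, Bcat2, Pdk4 and Dbt are red in ISO 3.

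Summed markers of several cell types also differed between the groups, whose libraries did not overlap in the next 4 sums. The summed FPKM of 18 cardiomyocyte markers ran from 16161 to 26475 in ISO and from 36431 to 51253 in saline. In log2 fold change 18 of 18 of these markers were below 0, and 7 were lower without overlap. Of all genes tested, 31.9% were below 0 and 3.72% were lower without overlap. The summed FPKM of 9 fibroblast markers ran from 1900.5 to 2238 in ISO and from 933 to 1306 in saline. The summed FPKM of 10 macrophage markers ran from 1032 to 1984 in ISO and from 485 to 928 in saline, and that of 8 erythroid markers from 14094 to 29595 in ISO and from 3254 to 6705 in saline. Higher in ISO without overlap were 7 of 9 fibroblast, 7 of 10 macrophage and 7 of 8 erythroid markers, and 0 were lower without overlap. Of all genes tested, 12.8% were higher without overlap. No cardiomyocyte, fibroblast or macrophage marker was at 0 in any library. The part of these cell types in the levels of the members was not tested. In such bulk samples fewer muscle cells and less RNA per muscle cell cannot be told apart. Adipocyte markers, whose summed FPKM was 1211, 1224 and 3486 in ISO 1 to 3, against 2398, 2280 and 4747 in saline 1 to 3, overlapped between the groups. The summed FPKM of 8 endothelial markers ran from 632 to 801 in ISO and from 313 to 709.9 in saline, and that of 9 liver markers from 83.6 to 127 in ISO and from 96.0 to 819 in saline, with saline 3 the highest for liver and the lowest for endothelium.

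The PDH complex itself showed no separation of the groups. Pdhb, the beta subunit of its E1 enzyme, was at 209, 186 and 121 FPKM in ISO 1 to 3, against 235, 174 and 250 FPKM in saline 1 to 3. ISO 3 was the lowest and saline 2 lay below ISO 1 and ISO 2, so the groups overlapped (log2 fold change -0.37, SE 0.29, limma adjusted p = 0.699). That value was -0.14 without ISO 3 and -0.035 without ISO 3 and saline 3 together. Dlat, the E2 acetyltransferase that forms acetyl-CoA, was at 32.3, 28.5 and 19.2 FPKM in ISO, against 31.9, 29.0 and 53.3 FPKM in saline. Its log2 fold change of -0.48 (SE 0.32, limma adjusted p = 0.699) was -0.21 without saline 3, -0.27 without ISO 3 and -0.0020 without both. Pdha1, the E1 alpha subunit that the kinases phosphorylate, was at 156 ± 28.0 FPKM in ISO and 167 ± 12.2 FPKM in saline (SD, n = 3 each). The groups overlapped for Pdha1, with ISO 3 the lowest library. Dld, the E3 subunit shared with the oxoglutarate and branched-chain complexes, varied little, with its highest library 1.21 times its lowest, at 74.5 ± 4.46 FPKM in ISO and 69.6 ± 4.60 FPKM in saline (SD, n = 3 each). Pdhx, which anchors E3 to the complex, had the lowest mean level of the members per length, at 1.93, 2.77 and 1.59 FPKM in ISO, against 1.69, 1.73 and 1.28 FPKM in saline. It rested on 18 reads in saline 3, where the 95% exact Poisson interval was 0.761 to 2.03 FPKM. The ratio of Dlat to Pdhx within a library was 16.7, 10.3 and 12.1 in ISO 1 to 3, against 18.9, 16.8 and 41.5 in saline 1 to 3. The ISO ratios lay below all saline ratios, but ISO 1 and saline 2 nearly met, and the exact two-sided permutation p of 0.1 is the smallest that 3 against 3 libraries can give (adjusted p = 0.6 over the 12 ratios compared). The log2 difference was -0.89, and -0.48 without saline 3.

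The kinases and the phosphatase that set PDH activity did not separate the groups either. Their median log2 fold change was 0.023, and -0.18 with median-of-ratios scaling. Per length, the order Pdk2 over Pdk4 over Pdk1 over Pdk3 was the same in 6 of 6 libraries. Pdk2, the most abundant kinase here, was at 84.0, 82.8 and 102 FPKM in ISO 1 to 3, against 97.5, 108 and 118 FPKM in saline 1 to 3. Only ISO 3 reached into the saline range (log2 fold change -0.27, SE 0.21, limma adjusted p = 0.699), and the sign was negative in all 16 alternatives. Pdk4, the kinase that fasting and fatty acid use induce, was at 43.4, 42.1 and 78.6 FPKM in ISO, against 58.2, 53.3 and 61.7 FPKM in saline. ISO 1 and ISO 2 lay below every saline library and ISO 3 above every one, so the log2 fold change of -0.13 (SE 0.29, limma adjusted p = 0.858) was -0.42 without ISO 3 and 0.021 without ISO 2. Set against Pdk2 in the same library, the ratio of Pdk4 was 0.518, 0.508 and 0.768 in ISO, against 0.597, 0.494 and 0.523 in saline, so ISO 3 alone stood out. Pdk1, the kinase that low oxygen induces, was at 13.7, 11.2 and 7.53 FPKM in ISO, against 9.06, 10.9 and 11.8 FPKM in saline. Pdk3, another PDH kinase, was at 6.03, 3.88 and 1.51 FPKM in ISO, against 2.18, 2.85 and 0 FPKM in saline. It had 17 reads in ISO 3 and 0 reads in saline 3. For saline 3 the floor of 3 reads is 0.540 FPKM, and the 95% exact Poisson interval reached 0.664 FPKM.

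Pdp1, the catalytic subunit of the PDH phosphatase in muscle, was at 9.68, 8.56 and 5.59 FPKM in ISO 1 to 3, against 8.55, 7.79 and 4.18 FPKM in saline 1 to 3. Pdpr, its regulatory subunit, was at 5.56, 4.45 and 4.41 FPKM in ISO, against 5.48, 5.43 and 3.19 FPKM in saline. For both genes the groups overlapped and saline 3 was the lowest. The ratio of Pdk4 to Pdp1, which sets a kinase against its opponent within a library, was 4.49, 4.92 and 14.1 in ISO, against 6.81, 6.85 and 14.8 in saline. The groups overlapped, and the difference of -0.38 on the log2 scale was smaller than the SD of 0.92 among ISO libraries and 0.64 among saline libraries.

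Both pyruvate carrier genes had log2 fold changes below 0, and their groups overlapped. Mpc2 was at 147, 137 and 109 FPKM in ISO 1 to 3, against 175, 118 and 307 FPKM in saline 1 to 3. Saline 3 was far above the other 5 libraries, and without it the log2 fold change of -0.51 (SE 0.37, limma adjusted p = 0.699) was -0.14. Without ISO 3 and saline 3 together that log2 fold change was -0.019. Mpc1, the partner subunit, was at 29.6, 27.8 and 15.96 FPKM in ISO, against 28.3, 18.2 and 35.7 FPKM in saline. For both subunits ISO 3 and saline 2 were the lowest libraries and saline 3 the highest.

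The TCA cycle held the 4 members that were lower in every ISO library. These were citrate synthase and all 3 subunits of the NAD-dependent isocitrate dehydrogenase IDH3, the enzyme that calcium activates in heart mitochondria. Lower without overlap were also 7 of 18 cardiomyocyte markers, and 3.72% of all genes tested. Log2 fold changes below 0 were seen in 18 of 18 of these markers and in 31.9% of all genes. Of the 11 TCA cycle genes, 10 had a log2 fold change below 0 (median -0.31), and the median was -0.045 without ISO 3 and -0.20 without saline 3. It was below 0 with median-of-ratios scaling (-0.54), quantile normalization (-0.25) and sample quality weights (-0.037), and above 0 without ISO 3 and saline 3 together (0.090). Cs, which joins acetyl-CoA to oxaloacetate, was at 166, 157 and 162 FPKM in ISO 1 to 3, against 237, 186 and 181 FPKM in saline 1 to 3. The 3 ISO libraries lay close together, at 162 ± 4.63 FPKM, and below the lowest saline library (202 ± 31.0 FPKM in saline; SD, n = 3 each; log2 fold change -0.31, SE 0.21, limma adjusted p = 0.699). Without saline 1, its highest library, the log2 fold change of Cs was -0.19. Idh3a, the catalytic subunit, was at 142, 137 and 113 FPKM in ISO, against 190, 147 and 162 FPKM in saline. ISO 1 and saline 2 came nearest to each other, and ISO 3 lay farthest from the saline libraries (log2 fold change -0.35, SE 0.22, limma adjusted p = 0.699). Idh3b, which pairs with the catalytic subunit, was at 164, 152 and 146.5 FPKM in ISO, against 190.0, 195.5 and 378 FPKM in saline. Saline 3 set much of its log2 fold change, which was -0.65 (SE 0.31, limma adjusted p = 0.699) with all libraries and -0.32 without saline 3. Idh3g, the other regulatory subunit, was at 219, 217 and 250.1 FPKM in ISO, against 329, 291 and 411 FPKM in saline. Its gap was the widest of the 4 relative to its error, with a log2 fold change of -0.58 (SE 0.23, unadjusted p = 0.040 and adjusted p = 0.699 with limma). With sample quality weights, which gave saline 3 a weight of 0.0772, Idh3g was the 1 member of 41 that passed (log2 fold change -0.55, limma adjusted p = 0.040). With the same weights 768 of all 12269 genes tested passed.

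**Figure D3:**
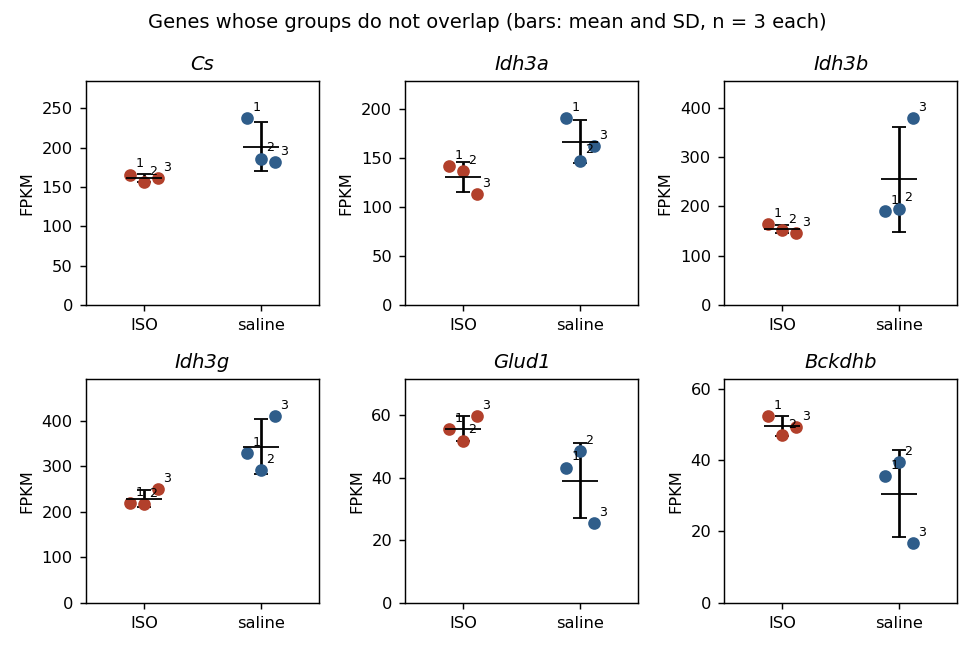
FPKM in each library (numbered points, ISO left and saline right) for the 6 genes whose groups did not overlap, with mean and SD (n = 3 each). Cs, Idh3a, Idh3b and Idh3g are lower in every ISO library, while Glud1 and Bckdhb are higher in every ISO library, and saline 3 is the farthest point in Idh3b, Idh3g, Glud1 and Bckdhb.

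The 6 genes without overlap lie on 5 chromosomes of GRCm38.p6: Cs at chr10:128337727-128362482, Idh3a at chr9:54586511-54604662, Idh3b at chr2:130279309-130284451, Idh3g at chrX:73778963-73786897, Glud1 at chr14:34310727-34345033 and Bckdhb at chr9:83925111-84124240. Promoters of Cs, Idh3b, Idh3g, Glud1 and Bckdhb are shown because their groups did not overlap. RefSeq promoters (GRCm38.p6, 250 bases before to 50 after the start) were matched for 37 of the 41 genes in 50 windows. Each is given 5′ to 3′ on the strand of the gene named beside it, with capitals for the core of ETS factor sites, GGAAGT or its reverse ACTTCC.
Cs (chr10:128337477-128337776, + strand): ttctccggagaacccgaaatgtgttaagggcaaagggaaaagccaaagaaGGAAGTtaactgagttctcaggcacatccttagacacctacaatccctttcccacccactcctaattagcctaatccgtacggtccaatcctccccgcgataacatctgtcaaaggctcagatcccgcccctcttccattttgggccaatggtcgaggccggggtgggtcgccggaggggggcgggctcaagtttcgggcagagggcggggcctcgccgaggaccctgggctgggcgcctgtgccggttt
Idh3b (chr2:130284402-130284701, - strand): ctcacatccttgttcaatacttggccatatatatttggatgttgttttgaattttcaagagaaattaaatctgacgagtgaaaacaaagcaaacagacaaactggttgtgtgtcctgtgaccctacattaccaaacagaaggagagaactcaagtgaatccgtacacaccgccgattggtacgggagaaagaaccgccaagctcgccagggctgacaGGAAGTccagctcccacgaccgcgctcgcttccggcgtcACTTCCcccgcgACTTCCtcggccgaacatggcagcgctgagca
Idh3g (chrX:73786848-73787147, - strand): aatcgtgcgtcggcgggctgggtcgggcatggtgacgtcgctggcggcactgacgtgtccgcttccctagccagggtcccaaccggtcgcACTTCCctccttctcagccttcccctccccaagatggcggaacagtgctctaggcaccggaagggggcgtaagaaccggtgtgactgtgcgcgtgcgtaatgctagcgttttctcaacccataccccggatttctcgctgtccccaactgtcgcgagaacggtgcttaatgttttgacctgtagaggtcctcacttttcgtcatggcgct
Glud1 (chr14:34310477-34310776, + strand): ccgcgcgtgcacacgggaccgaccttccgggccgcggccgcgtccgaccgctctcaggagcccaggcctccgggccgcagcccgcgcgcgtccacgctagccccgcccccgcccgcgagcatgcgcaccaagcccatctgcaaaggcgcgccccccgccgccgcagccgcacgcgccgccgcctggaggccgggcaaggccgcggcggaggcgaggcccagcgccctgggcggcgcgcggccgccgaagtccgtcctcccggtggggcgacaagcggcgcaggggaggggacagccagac
Bckdhb (chr9:83924887-83925186, + strand): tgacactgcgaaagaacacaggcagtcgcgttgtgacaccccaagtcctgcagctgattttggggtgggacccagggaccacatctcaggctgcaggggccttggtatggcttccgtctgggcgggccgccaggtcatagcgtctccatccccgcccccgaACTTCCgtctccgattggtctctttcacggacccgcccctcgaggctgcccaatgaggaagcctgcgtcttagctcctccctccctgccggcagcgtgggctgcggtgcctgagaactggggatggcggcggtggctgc
The ETS core was found 3 times in the window of Idh3b, 1 time each in those of Cs, Idh3g and Bckdhb, and 0 times in that of Glud1. Over all 50 member windows, 24% held it on either strand, close to the 23.8% of all 32851 promoter windows. The GC box (GGGCGG, either strand) was in 52% of member windows and 35.7% of all windows, and CCAAT (either strand) in 54% and 37.4%. The palindromic cAMP response element TGACGTCA was in 5 member windows (10%), those of Mdh2, Ogdh and Pdpr, and in 1.79% of all windows. The half-site of the estrogen-related receptors, AAGGTCA on either strand, was in 4% of member windows and 4.72% of all windows. Some genes have more than 1 window, and a match describes letters, not binding. The window of Bckdhb is the first of 2 for that gene.

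For the other 7 members of the TCA cycle the groups overlapped. Idh2, the NADP-dependent isocitrate dehydrogenase of mitochondria, was at 164, 152 and 57.6 FPKM in ISO 1 to 3, against 179, 94.4 and 256 FPKM in saline 1 to 3. Its log2 fold change of -0.53 (SE 0.51, limma adjusted p = 0.713) was -0.045 without ISO 3, and 0.28 without ISO 3 and saline 3. Ogdh and Dlst, the E1 and E2 subunits of the oxoglutarate dehydrogenase complex, were at 80.0 ± 23.2 and 113 ± 35.3 FPKM in ISO and at 88.8 ± 6.04 and 127 ± 6.99 FPKM in saline (SD, n = 3 each). For both, ISO 1 and ISO 2 lay within or above the saline range and ISO 3 alone lay below it. Succinyl-CoA ligase pairs Suclg1 with either Sucla2, which forms ATP, or Suclg2, which forms GTP. Suclg2 was below Sucla2 in every library, with a ratio of 0.214, 0.227 and 0.283 in ISO 1 to 3, against 0.293, 0.174 and 0.151 in saline 1 to 3. Mdh2, the mitochondrial malate dehydrogenase and the member with the highest mean level, was at 571, 550.4 and 238 FPKM in ISO, against 615, 321 and 606 FPKM in saline. ISO 3 and saline 2 were its lowest libraries, and the other 4 lay close together.

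Of a list of 56 other genes of these pathways, 54 were in the table, 48 were tested and 0 passed with limma. Of the 48, 32 were below 0 in log2 fold change, 4 did not overlap on the lower side and 1 on the higher side, where 31.9% of all genes tested were below 0, 3.72% did not overlap on the lower side and 12.8% on the higher side. The 4 with the smallest p were Sdhb, Bdh2, Gpt and Ldhb. Sdhb, the iron-sulfur subunit of succinate dehydrogenase, was at 303, 303 and 296 FPKM in ISO 1 to 3, against 546, 378 and 488 FPKM in saline 1 to 3 (log2 fold change -0.63, SE 0.23, limma adjusted p = 0.699). Gpt, an alanine aminotransferase that joins pyruvate to amino acids, was at 10.3, 9.11 and 9.16 FPKM in ISO, against 14.6, 13.3 and 14.9 FPKM in saline (log2 fold change -0.54, SE 0.21, limma adjusted p = 0.699). Ldhb, the lactate dehydrogenase subunit of heart, was at 297, 254 and 165 FPKM in ISO, against 437, 263 and 691 FPKM in saline, with ISO 1 above saline 2. At an unadjusted p under 0.05 the list held 2 genes lower in ISO (Sdhb and Gpt) and 1 higher (Bdh2), where 1.39% of all genes tested were lower and 4.92% higher. With sample quality weights, Sdhb (adjusted p = 0.034) and Gpt (adjusted p = 0.040) passed in the limma fit, as did 768 of all 12269 genes tested. Bdh2, a cytosolic hydroxybutyrate dehydrogenase, was at 8.56, 7.12 and 17.2 FPKM in ISO, against 3.55, 5.68 and 0 FPKM in saline, where saline 3 had 0 reads. Sdhc, a membrane anchor of succinate dehydrogenase named after its values were seen, was at 162, 167 and 118 FPKM in ISO, against 246, 169 and 273 FPKM in saline, with ISO 2 just below saline 2.

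The malate-aspartate shuttle, which carries reducing power into mitochondria, and the enzymes that refill the cycle gave mixed values. Mdh1, the cytosolic malate dehydrogenase, had the lowest log2 fold change of the members, -0.76 (SE 0.40, limma adjusted p = 0.699). It was at 255.5, 239.6 and 147 FPKM in ISO 1 to 3, against 396, 208 and 527 FPKM in saline 1 to 3, with saline 2 below ISO 1 and ISO 2. The log2 fold change was -0.46 without saline 3, -1.13 without saline 2 and -0.21 without ISO 3 and saline 3 together. Set against its mitochondrial partner, the ratio of Mdh2 to Mdh1 was 2.23, 2.30 and 1.62 in ISO, against 1.55, 1.55 and 1.15 in saline. All ISO ratios lay above all saline ratios, a log2 difference of 0.53, with an exact two-sided permutation p of 0.1, the smallest that 3 against 3 can give (adjusted p = 0.6 over the 12 ratios). It was 0.39 to 0.69 with any 1 library left out. A ratio within a library does not move with the scaling of that library.

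Got1 and Got2, the cytosolic and mitochondrial aspartate aminotransferases, were at 112 ± 62.1 and 122 ± 49.6 FPKM in ISO and at 130 ± 55.5 and 138 ± 30.8 FPKM in saline (SD, n = 3 each). Glud1, the glutamate dehydrogenase that feeds oxoglutarate, was one of the members higher in every ISO library. It was at 55.4, 51.9 and 59.7 FPKM in ISO 1 to 3, against 43.2, 48.4 and 25.6 FPKM in saline 1 to 3. Its log2 fold change of 0.55 (SE 0.28, limma adjusted p = 0.699) was 0.27 without saline 3. Pcx, the pyruvate carboxylase that makes oxaloacetate, was at 7.24, 8.20 and 16.7 FPKM in ISO, against 8.07, 12.6 and 7.03 FPKM in saline. It was highest in ISO 3 and saline 2. Me1, the cytosolic malic enzyme, was at 23.1, 21.5 and 18.2 FPKM in ISO, against 19.1, 19.7 and 17.4 FPKM in saline, with ISO 3 inside the saline range. Me3, a mitochondrial malic enzyme, was at 3.48, 2.99 and 1.46 FPKM in ISO, against 3.02, 2.34 and 7.46 FPKM in saline.

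For some members the lowest levels lay in libraries low in Myl2, 1 from each group, a description chosen after the values were seen. For 16 of 41 members (39%) the 2 lowest libraries were ISO 3 and saline 2, the libraries with the lowest Myl2, where this held for 5.09% of all genes tested. They were Pdha1, Pdhb, both pyruvate carrier subunits, Idh2, Ogdh, Dlst, Suclg1, Suclg2, Mdh1, Mdh2, Got1, Got2, Me3, Oxct1 and Acat1. Got1 was at 148.5, 147 and 40.3 FPKM in ISO 1 to 3, against 125, 76.9 and 187.5 FPKM in saline 1 to 3. Suclg1 was at 94.7, 93.4 and 40.8 FPKM in ISO, against 91.1, 55.4 and 157 FPKM in saline. In both genes the libraries low in Myl2 lay below the other 4, whichever group they came from. Cs, Idh3a, Idh3b and Idh3g could not be among the 16, because every ISO library lay below every saline library for them. The part that the share of ventricular muscle had in these levels was not tested.

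**Figure D4:**
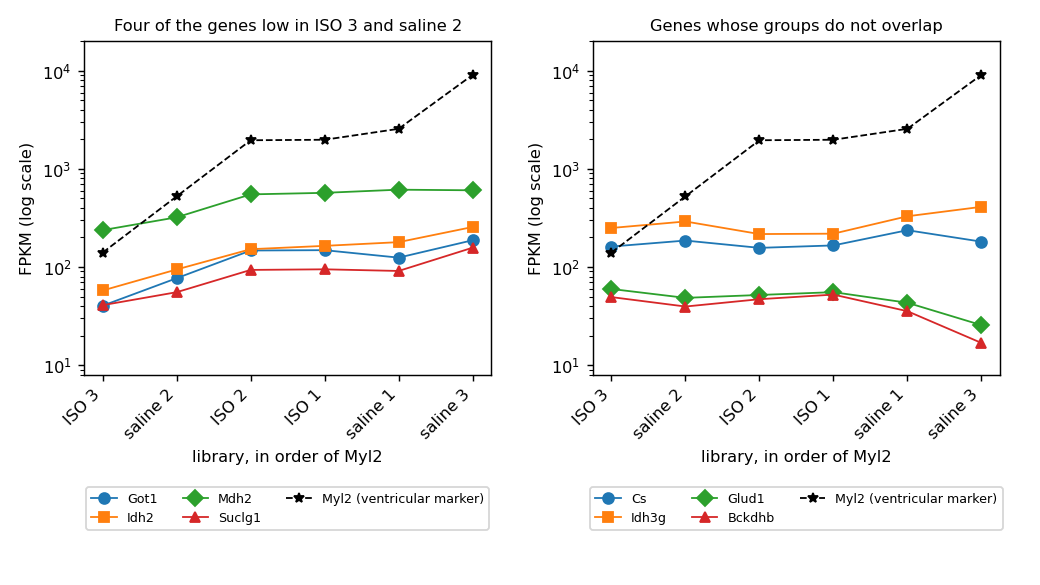
FPKM (log axis) in each library, ordered by the level of Myl2 (dashed line), for Got1, Idh2, Mdh2 and Suclg1 (left panel) and for Cs, Idh3g, Glud1 and Bckdhb (right panel). The genes of both panels were picked with their values known. The left genes are lowest in ISO 3 and saline 2, while in the right panel ISO 3 lies with ISO 1 and ISO 2. In Idh3a, also without overlap but not shown, ISO 3 (113 FPKM) was the lowest ISO library. Saline 2 (147 FPKM) was the lowest saline library for Idh3a.

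Enzymes of ketone use did not separate the groups. Oxct1, the transferase that commits ketone bodies to oxidation, was at 84.5, 80.8 and 49.6 FPKM in ISO 1 to 3, against 78.7, 58.8 and 70.6 FPKM in saline 1 to 3. Its log2 fold change was 0.018 (SE 0.28, limma adjusted p = 0.982), and was -0.21 with median-of-ratios scaling and -0.0074 with quantile normalization. Bdh1, the mitochondrial hydroxybutyrate dehydrogenase, was at 6.51, 6.93 and 3.74 FPKM in ISO, against 3.65, 2.05 and 10.1 FPKM in saline. Saline 3 lay above every ISO library and saline 1 and 2 below every one, so the log2 fold change of 0.28 (SE 0.50, limma adjusted p = 0.821) was 0.80 without saline 3 and -0.13 without saline 2. Bdh1 had 43 reads in saline 2, with a 95% exact Poisson interval of 1.48 to 2.76 FPKM. That interval lies below those of ISO 1 (5.54 to 7.60 FPKM) and ISO 2 (5.74 to 8.29 FPKM). Acat1, the thiolase that splits acetoacetyl-CoA, was at 51.3, 52.2 and 40.2 FPKM in ISO, against 56.2, 47.6 and 91.0 FPKM in saline.

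Of the 7 branched-chain genes, 4 had a log2 fold change below 0 and 3 above 0 (median -0.17). Bckdhb was the 1 of the 7 without overlap, on the higher side, where 12.8% of all genes tested were higher without overlap. Bckdhb, the beta subunit of its E1 enzyme, was at 52.3, 46.9 and 49.3 FPKM in ISO 1 to 3, against 35.4, 39.5 and 16.8 FPKM in saline 1 to 3. All ISO libraries lay above all saline libraries. The log2 fold change of 0.76 (SE 0.34, unadjusted p = 0.0582, adjusted p = 0.699 with limma) was 0.39 without saline 3, where the gene had 83 reads. Bckdha, the alpha subunit that binds it, was at 69.3, 58.3 and 56.4 FPKM in ISO, against 69.3, 66.0 and 115 FPKM in saline. Its log2 fold change of -0.40 (SE 0.28, limma adjusted p = 0.699) was -0.14 without saline 3. The ratio of Bckdhb to Bckdha, a pair chosen after the values were seen and not tested, was 0.755, 0.806 and 0.875 in ISO, against 0.511, 0.599 and 0.146 in saline. Each ISO ratio was above each saline ratio, and saline 3 had by far the lowest. Dbt, the E2 transacylase, was at 13.2, 13.1 and 19.3 FPKM in ISO, against 8.12, 11.6 and 15.8 FPKM in saline, and ISO 1 and ISO 2 lay between saline 2 and saline 3 (log2 fold change 0.36, SE 0.31, limma adjusted p = 0.701). Without saline 1 the log2 fold change of Dbt was 0.13.

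Bckdk, the kinase that switches the complex off, was at 23.2, 22.0 and 18.9 FPKM in ISO 1 to 3, against 21.5, 22.2 and 39.3 FPKM in saline 1 to 3. Its ratio to Bckdha was 0.335, 0.378 and 0.335 in ISO, against 0.311, 0.336 and 0.341 in saline. The kinase and its substrate thus kept nearly the same proportion in all 6 libraries, saline 3 included. Bcat2, the mitochondrial aminotransferase that starts the pathway, was at 27.3, 25.3 and 49.6 FPKM in ISO, against 33.6, 41.2 and 40.9 FPKM in saline. As with Pdk4, ISO 1 and ISO 2 lay below every saline library and ISO 3 above every one (log2 fold change -0.23, SE 0.30, limma adjusted p = 0.764). The log2 fold change of Bcat2 was -0.53 without ISO 3 and -0.057 without ISO 2. Ivd, which acts on the leucine branch, ranged from 74.4 to 117 FPKM in ISO and from 59.5 to 118 FPKM in saline. Hibch, which acts on the valine branch, ranged from 13.2 to 23.5 FPKM in ISO and from 16.3 to 21.8 FPKM in saline. Of the 12 ratios compared, all but those of Dlat to Pdhx and of Mdh2 to Mdh1 overlapped between the groups, with exact permutation p from 0.3 to 0.8 (adjusted p from 0.764 to 0.8).

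**Figure D5:**
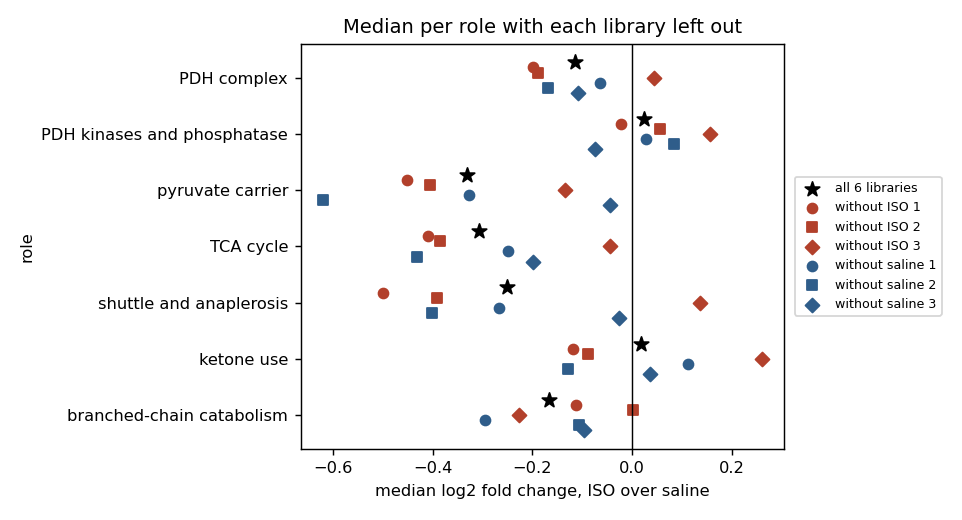
Median log2 fold change, ISO over saline, of the genes of each role with all 6 libraries (stars) and with each library left out (red for an ISO library left out, blue for a saline one). The TCA cycle median lies between -0.43 and -0.045, and the pyruvate carrier median also stays below 0, while the medians of the other 5 roles lie on either side of 0 depending on the library left out.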

How the data were processed

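The deposited table holds FPKM for 21989 gene symbols in 3 ISO and 3 saline libraries. FPKM values were made by the authors; CASAVA 1.8, fastp 0.20.0, HISAT2 2.1.0, Cufflinks 2.2.1, HTSeq 0.7.2, DESeq and the build GRCm38 are named, without roles, in the submitters' processing notes. The annotation release and strand setting are not given in the sources used here, so genes that overlap others on the opposite strand are uncertain.

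Log2(FPKM + 1) was tested for the 12269 genes with a mean of at least 1 FPKM by limma 3.58.1 with a mean-variance trend (R 4.3.3), two-sided, with Benjamini-Hochberg adjustment over all genes tested at 0.05. Fold changes on this scale understate the change of low genes. Whole reads were recovered within 0.0001 for 100% of 16816 genes above 0 in at least 2 libraries, which gave the depths and an added limma-voom fit that called 0 genes. Intervals are exact Poisson at 95%, floors are 3 reads, and both cover counting error only. For a gene of 1 kilobase, a single read gave 0.360 FPKM in saline 3 and 0.101 FPKM in saline 1. Ratios of 12 pairs of members were compared by exact permutation (scipy 1.17.1). The recovery of reads and the limma fit were tested on simulated data, and the permutation of ratios was not. The changes simulated for limma were larger than that of any member.

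The members, lists and tests were chosen with earlier results of these data known. Per-library values are given for the 3 members with the smallest p in each role, the kinases, phosphatase subunits, Oxct1, Bdh1, Bcat2, Pcx, Me1, pairs whose ratios did not overlap, and the 4 other pathway genes with the smallest p; others so given were chosen after their values were seen. Alternatives changed the pseudocount, filter, scaling, weights, libraries and replicate block. Deviations of ISO and saline libraries with the same number had correlations of 0.013, -0.15 and -0.025, so the numbers were not taken to pair samples. One other pathway gene and 1 marker gene are not reported by name here.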

Additional observations from a re-analysis of the deposited data

How the results depend on the processing

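With sample quality weights, 768 genes and 1 member (Idh3g) passed, and Idh3g, Sdhb and Gpt crossed the threshold; with 1 library left out, 0 to 16 genes passed (16 without ISO 1) and 0 to 0 members. The number of members below 0 was 16 without ISO 3 and saline 3 together, an alternative chosen after the data were seen, 19 to 31 with 1 library left out, 34 with median-of-ratios scaling and with quantile normalization, and 21 with quality weights, against 27 as reported. The 31.9% of all genes below 0 is from the fit as reported and is not a measure for these alternatives. The median log2 fold change of the members was -0.45 with median-of-ratios scaling, 0.090 without both libraries and -0.31 to 0.043 with 1 left out. Less the median of all genes (0.20 in the fit as reported, 0.0055 with median-of-ratios scaling and -0.0031 with quantile normalization), it was -0.42 as reported, -0.21 with quantile normalization, -0.071 with quality weights, 0.046 without both libraries and -0.54 to -0.14 with 1 left out. Signs turned for Idh2 without both libraries (0.28), for Oxct1 with median-of-ratios scaling (-0.21) and quantile normalization (-0.0074), and with 1 library left out for Pdk4 (-0.42 to 0.021), Bdh1 (-0.13 to 0.80) and Oxct1 (-0.12 to 0.26). Log2 differences of ratios turned for Pdk4 to Pdk2 (-0.064 to 0.23 with 1 left out, -0.082 without both), Suclg2 to Sucla2 (-0.035 without both), Idh3b to Idh3a (-0.57 to 0.040 with 1 left out), Got2 to Got1 (-0.15 to 0.27 with 1 left out, -0.29 without both), Oxct1 to Bdh1 (-0.98 to 0.037 with 1 left out) and Dbt to Bckdhb (-0.80 to 0.22 with 1 left out, 0.037 without both). The cause was not tested. The sign was kept for 15 of 41 members (11 lower and 4 higher) in every one of the 16 alternatives that tested them (the filter at a mean FPKM of 5 left out Pdk3), although groups that do not overlap fix it when 1 library is left out. A kept sign does not mean a kept size. Without both libraries the 11 lower members ran from -0.51 (Idh3g) to -0.0020 (Dlat), with Mpc2 at -0.019 and Pdhb at -0.035. The replicate numbers were not taken to pair the samples, and the fit with the replicate block called 0 genes and 0 members, with 27 members below 0. Depth limits Pdk3 (0 reads) and Pdhx (18 reads) most, both in saline 3, where 7 members had under 100 reads.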
